A study of Homo sapiens with 6 samples.

Results

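Kruppel-like factors (KLFs) are zinc-finger transcription factors of which 10, KLF2, KLF3, KLF4, KLF5, KLF6, KLF7, KLF9, KLF10, KLF11 and KLF13, were followed here by gene symbol among the 39327 named gene rows of the deposited table. All 10 were found, each on a row of its own, and all 10 passed the filter on low counts that left 12821 genes. The RNA came from CAL62, an established cell line of anaplastic thyroid carcinoma (ATC), labelled wild type. Cells received 50 nM erianin, a bibenzyl compound from Dendrobium, or an equal concentration of its solvent DMSO, for 48 h, with 3 libraries in each group. The comparison asks which transcripts differed between treated and control cells. The labels do not say whether libraries of 1 group came from separate cultures, so p-values measure the spread between these libraries only, and all came from 1 cell line.

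KLF proteins carry C2H2 zinc fingers at the C-terminus with which they bind GC-rich DNA and CACCC elements, and they differ in the N-terminal part that recruits partners. KLF2, KLF4, KLF5, KLF6 and KLF7 are mainly known as activators, although several of them also repress. KLF3 is a repressor that binds CtBP, and KLF9, KLF10, KLF11 and KLF13 bind the Sin3A corepressor. Many KLF genes respond quickly to growth factors, stress or TGF-beta, and in epithelia the family is known for opposing roles in proliferation and differentiation.

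KLF4 and KLF11 were higher and KLF2 was lower in erianin-treated cells, and these were the members that passed both thresholds. KLF4 rose 1.58-fold, KLF11 rose 1.55-fold, and KLF2 fell to 0.674 of its DMSO level. KLF6 and KLF13 also had normalised counts that did not overlap between groups, KLF6 higher and KLF13 lower with erianin. The other 5 members, KLF3, KLF5, KLF7, KLF9 and KLF10, had overlapping normalised counts, with DMSO replicate 3 above all 3 erianin libraries in each case.

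The sequences before the start sites of the members that passed are shown here, because they are the promoter windows of the genes whose transcripts differed. They were read from RefSeq on GRCh38.p14, on the strand of the gene, 5′ to 3′, and bases that GENCODE places in exons of the gene were left out. Capitals mark GGGCGG or its complement CCGCCC (the GC box of SP and KLF proteins), a MEF2 site, TGACGTCA (the cyclic AMP response element bound by CREB and ATF proteins) and CACCC. The KLF2 sequence is chr19:16324576-16324816 on the plus strand, 241 bases and 79.3% G and C. The KLF4 sequence is chr9:107489770-107490019 on the minus strand, 250 bases and 69.2% G and C. The RefSeq table holds 2 windows for KLF11. The KLF11 sequence printed is from the downstream window, chr2:10043971-10044174 on the plus strand, 204 bases and 75% G and C. The part of the upstream KLF11 window outside exons, chr2:10043759-10043828, is 70 bases long, held none of the motifs marked and is not printed. The KLF2 stretch ends just before the GENCODE gene, and those of KLF4 and KLF11 lie between exons within the GENCODE gene.
KLF2: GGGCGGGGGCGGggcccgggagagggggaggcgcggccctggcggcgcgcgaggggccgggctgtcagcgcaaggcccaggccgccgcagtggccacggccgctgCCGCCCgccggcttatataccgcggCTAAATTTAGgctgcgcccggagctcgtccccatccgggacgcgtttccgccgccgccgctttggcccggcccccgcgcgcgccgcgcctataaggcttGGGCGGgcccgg
KLF4: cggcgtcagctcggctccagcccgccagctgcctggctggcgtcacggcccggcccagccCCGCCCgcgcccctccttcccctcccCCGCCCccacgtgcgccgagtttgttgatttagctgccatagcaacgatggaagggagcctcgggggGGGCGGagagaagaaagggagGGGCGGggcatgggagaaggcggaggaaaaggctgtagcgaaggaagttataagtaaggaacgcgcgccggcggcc
KLF11: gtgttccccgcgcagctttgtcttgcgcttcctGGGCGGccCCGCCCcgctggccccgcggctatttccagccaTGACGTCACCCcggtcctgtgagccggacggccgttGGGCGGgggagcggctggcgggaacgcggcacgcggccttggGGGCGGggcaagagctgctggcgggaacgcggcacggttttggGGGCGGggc

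The KLF2 stretch held 4 matches to GGGCGG and a MEF2 site from -120 to -111, counted backwards from the RefSeq start. The KLF4 stretch held 4 matches to GGGCGG and no other capital. The KLF11 stretch held 5 matches to GGGCGG and a TGACGTCA from -176 to -169, whose last bases overlap a CACCC from -170 to -166. Over 35116 windows of 250 bases before RefSeq start sites, 42.6% held GGGCGG, 54.7% held CACCC, 2.8% held a MEF2 site and 1.65% held TGACGTCA. Of 13 such windows of 8 members, 8 held GGGCGG, 6 held CACCC, 1 held a MEF2 site and 1 held TGACGTCA. Both strands were searched, and matches to different motifs could overlap. CCAAT stood in 6 of the 13 windows against 32% of all, while TATAAA, a CArG box and GAANNTTC stood in 1 window each against 10.7%, 1.16% and 5.78% of all. TGANTCA, TGATGCAA and GTAAACA were in none of the 13 and in 6.57%, 0.772% and 2.98% of all. A match describes the letters only.

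Between 25776301 and 34107727 reads were counted on named genes per library, and the members had between 348 and 7053 counts each, with less counting error for the more abundant members. Normalised read counts are given as CPM, which scales counts to the library total corrected by TMM factors. DMSO replicate 3 stood apart from DMSO replicates 1 and 2. The chi-square per gene between libraries was 90.7 and 104 for the pairs with DMSO replicate 3, against 4.35 for the other DMSO pair and 3.8 to 4.8 among the erianin libraries, all above sampling noise. Results are therefore given with and without it. Of the thyroid markers, PAX8 lay between 419.1 and 739.2 CPM and FOXE1 between 1.07 and 2.28 CPM, TG and SLC5A5 stayed at or below 0.381 CPM, and TSHR and NKX2-1 had no count in any library, which allows up to 3 counts in each. PAX8 was called lower with erianin. The summed markers of endothelial, blood and keratinocyte cells reached at most 1.61, 4.36 and 0.791 CPM, and of these only KRT14 was called, higher with erianin at or below 0.673 CPM.

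**Figure D1:**
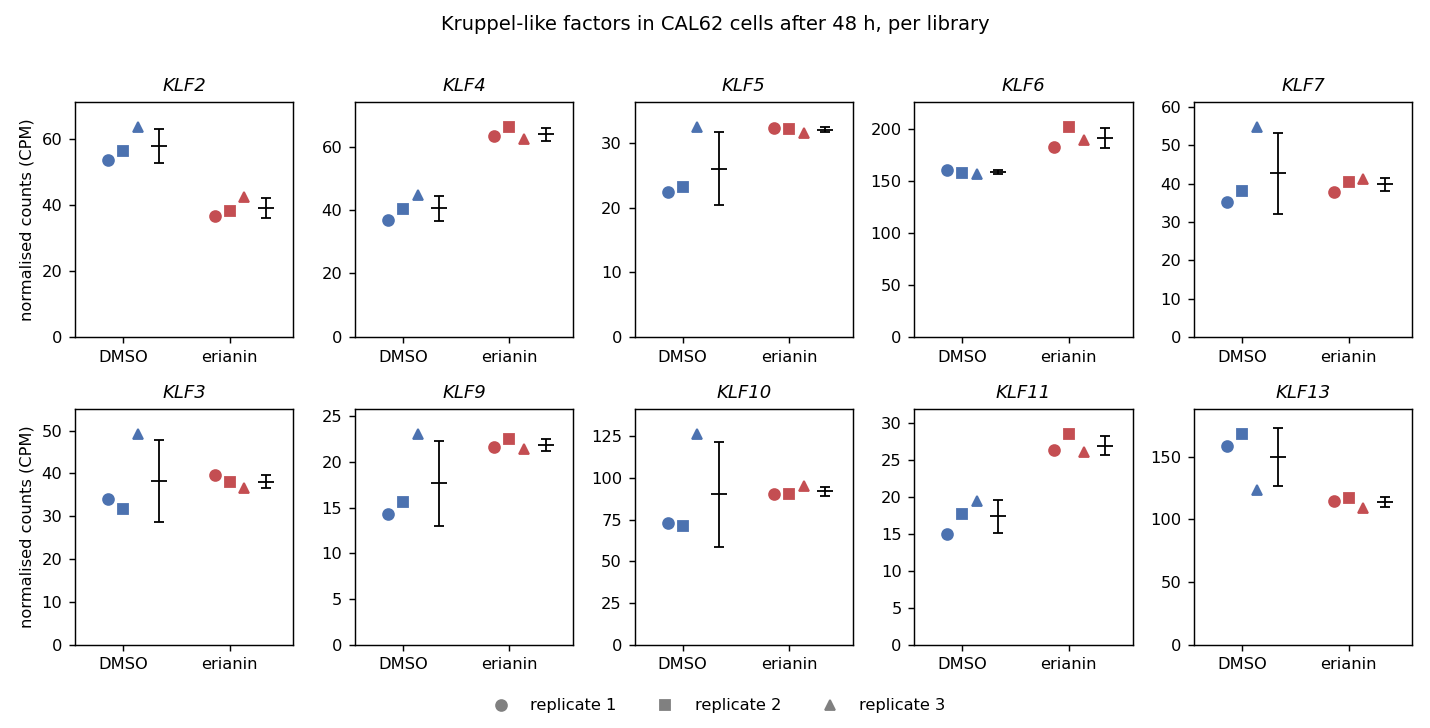
Normalised counts (CPM, y axis from 0) of each of the 10 members in the 3 DMSO (blue) and 3 erianin (red) libraries, with point shapes for replicate numbers and black bars for the mean and SD of each group. KLF2, KLF4, KLF6, KLF11 and KLF13 have no overlap between groups, and the triangle of DMSO replicate 3 lies above the other DMSO points in 8 panels and below them for KLF6 and KLF13.

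Among the members mainly known as activators, KLF4 had the lowest adjusted p. KLF4 holds back the cell cycle in epithelia and is 1 of the factors used to reprogram cells to pluripotency. Its gene lies on the minus strand at chr9:107484852-107490482 (GENCODE release 29, GRCh38). KLF4 was at 36.8, 40.2 and 44.6 CPM in DMSO replicates 1, 2 and 3 and at 63.3, 66.2 and 62.2 CPM in erianin replicates 1, 2 and 3. All 3 erianin libraries lay above all 3 DMSO libraries. The log2 fold change was 0.66 ± 0.094 (SE, n = 3 per group), with an adjusted p of 0.00656 by edgeR's quasi-likelihood test. Among the 18 alternative fits the call was lost only without erianin replicate 2 (log2 fold change 0.63, edgeR adjusted p = 0.0524). In these bulk libraries, a change in the number of cells that express a gene and a change in RNA per cell cannot be told apart.

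KLF2, a factor induced by shear stress in endothelium and linked to quiescence there and in T cells, moved in the opposite direction. The gene lies on the plus strand at chr19:16324817-16327874. KLF2 was at 53.7, 56.3 and 63.6 CPM in the DMSO libraries and at 36.5, 38.1 and 42.4 CPM in the erianin libraries. The highest erianin library lay below the lowest DMSO library. The log2 fold change was -0.57 ± 0.101 (SE, n = 3 per group; edgeR adjusted p = 0.0127). The call was lost without any single erianin replicate (log2 fold changes -0.54, -0.55 and -0.64, edgeR adjusted p = 0.0726, 0.0774 and 0.0543 without replicates 1, 2 and 3). It was also lost with GC trends removed and DMSO replicate 3 left out, and on log2(TPM + 1) values, where KLF2 differed by -0.37 (limma adjusted p = 0.0337) and the median of all genes by 0.175, so that KLF2 stood at -0.54 relative to that median.

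KLF6 had the highest mean CPM of the members in both groups, a measure that is not corrected for gene length. In DMSO replicate 2, KLF13 was above it, at 167.7 against 157.7 CPM. KLF6 is an immediate-early gene with a reported tumour-suppressor role, on the minus strand of chr10:3775996-3785281. Its CPM was 160.6, 157.7 and 156.5 with DMSO and 182.7, 201.9 and 189.5 with erianin. Every erianin library exceeded every DMSO library, but the difference was small, 0.27 ± 0.068 on the log2 scale (SE, n = 3 per group), with an edgeR adjusted p of 0.035, and it did not reach the fold-change threshold of 0.5. The adjusted p was over 0.05 with 5 of the 6 libraries left out in turn, and 1.01e-05 without DMSO replicate 3.

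KLF5 and KLF7 did not pass. KLF5, which promotes proliferation in intestinal crypts, lies at chr13:73054976-73077542 on the plus strand and had 22.5, 23.2 and 32.6 CPM with DMSO against 32.4, 32.2 and 31.7 CPM with erianin. DMSO replicate 3 was just above the erianin libraries while the other DMSO libraries were below them. On the TPM scale KLF5 did not overlap, with DMSO replicate 3 at 21.5 TPM and the erianin libraries at 25.5 to 26.0 TPM. The log2 fold change was 0.30 ± 0.149 (SE, n = 3 per group; edgeR adjusted p = 0.224). KLF7, known from neuronal development, lies at chr2:207074137-207167267 on the minus strand and had 35.2, 38.1 and 54.8 CPM with DMSO against 37.9, 40.5 and 41.2 CPM with erianin. Its log2 fold change was -0.10 ± 0.166 (SE, n = 3 per group; edgeR adjusted p = 0.735), with a 95% interval from -0.49 to 0.28.

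KLF3, the member that recruits CtBP, lies at chr4:38664196-38701042 on the plus strand. It was at 34.0, 31.6 and 49.1 CPM with DMSO and at 39.7, 37.9 and 36.5 CPM with erianin. The erianin values fell between DMSO replicate 3 and the other DMSO libraries, and the log2 fold change was -0.008 ± 0.166 (SE, n = 3 per group; edgeR adjusted p = 0.983; 95% interval -0.40 to 0.38). The antisense gene KLF3-AS1 overlaps 688 bases of the KLF3 gene span, and whether these lie in exons was not examined. The use of strand in counting is not stated, so it is not known whether reads of KLF3-AS1 were counted for KLF3.

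Of the members that bind Sin3A, KLF11 was the 1 that passed. KLF11 is a TGF-beta-inducible gene on the plus strand at chr2:10042849-10054836. It was at 15.0, 17.6 and 19.4 CPM with DMSO and at 26.3, 28.4 and 26.0 CPM with erianin, again with no overlap. The log2 fold change was 0.63 ± 0.119 (SE, n = 3 per group; edgeR adjusted p = 0.0147). As for KLF2, the call was lost without any single erianin replicate (log2 fold changes 0.64, 0.59 and 0.66, edgeR adjusted p = 0.0726, 0.0844 and 0.0728 without replicates 1, 2 and 3), and it was kept without each DMSO replicate. An antisense gene, AC104794.4, overlaps 416 bases of the KLF11 gene span, and whether these lie in exons was not examined.

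KLF13, first known as a regulator of the chemokine gene CCL5 in T cells, lies at chr15:31326855-31435665 on the plus strand. It was at 158.1, 167.7 and 123.6 CPM with DMSO and at 114.3, 117.3 and 109.1 CPM with erianin. All erianin libraries were below all DMSO libraries, but DMSO replicate 3 lay nearer to the erianin libraries than to DMSO replicates 1 and 2. The log2 fold change was -0.40 ± 0.117 (SE, n = 3 per group; edgeR adjusted p = 0.0595). On the TPM scale DMSO replicate 3, at 62.2 TPM, lay below the 67.8 to 70.8 TPM of the erianin libraries, so that the groups overlapped there.

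KLF10, like KLF11 an early TGF-beta response gene, showed the widest spread of the 10 within the DMSO group. It lies at chr8:102648779-102655902 on the minus strand. Its CPM was 73.2, 70.9 and 126.2 with DMSO and 90.2, 90.6 and 95.04 with erianin, so that DMSO replicate 3 was 1.75 times the mean of DMSO replicates 1 and 2. The log2 fold change was 0.029 ± 0.212 (SE, n = 3 per group; edgeR adjusted p = 0.947). KLF9, which responds to glucocorticoid and thyroid hormone, lies at chr9:70384597-70414624 on the minus strand. KLF9 had 14.3, 15.6 and 23.0 CPM with DMSO and 21.6, 22.6 and 21.4 CPM with erianin, a log2 fold change of 0.31 ± 0.179 (SE, n = 3 per group; edgeR adjusted p = 0.29). DMSO replicate 3 was above the erianin libraries for both genes.

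In all, 2 of the 10 members were called higher and 1 lower, at a log2 fold change beyond 0.5 in size with an edgeR adjusted p under 0.05. Of all tested genes, 5.37% were called higher and 3.36% lower. Without the fold-change threshold, KLF6 joined and 3 members were higher and 1 lower, against 7.22% and 7.69% of all genes. CPM values did not overlap between groups for 5 members, 3 higher and 2 lower with erianin, against 38.7% of all tested genes in either direction. The median log2 fold change was 0.15 over the members and 0.001 over all genes.

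DMSO replicate 3 was the highest DMSO library for 8 members and the lowest for 2. It was over 1.4 times the mean of DMSO replicates 1 and 2 for 5 members, KLF3, KLF5, KLF7, KLF9 and KLF10, as it was for 16.4% of all tested genes, a cutoff set after the values were seen. For KLF13 it was 0.759 of that mean. Over the log2 CPM of the 10 members, the Euclidean distance was 0.359 between DMSO replicates 1 and 2, 1.57 and 1.48 from these to DMSO replicate 3, and 0.243 to 0.3 among the erianin libraries. Over these 10 genes DMSO replicate 3 was closer to the erianin libraries (1.18 to 1.37) than to its own group, while DMSO replicates 1 and 2 were 1.41 to 1.72 from the erianin libraries. Over all tested genes the order for DMSO replicate 3 was the reverse. It lay at 65.7 and 67.8 from the other DMSO libraries and at 72.3 to 73.3 from the erianin libraries. DMSO replicates 1 and 2 were 41.3 apart, and lay 65.1 to 66.4 and 61.4 to 62 from the erianin libraries. Both were thus nearer to the erianin libraries than to DMSO replicate 3.

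When DMSO replicate 3 was left out, KLF9 was also called higher and KLF13 also called lower. Calls then numbered 3 higher and 2 lower among the members, against 11.4% and 6.11% of the 13053 genes tested. The log2 fold changes became 0.54 ± 0.086 for KLF9 (SE, edgeR adjusted p = 2.58e-06) and -0.53 ± 0.046 for KLF13 (SE, edgeR adjusted p = 1.66e-11). This fit had 2 DMSO and 3 erianin libraries. Its common coefficient of variation between libraries of a group was 0.0421, against 0.139 with all 6 libraries. The adjusted p of this fit rest on that smaller spread. KLF4 was then at 0.73, KLF11 at 0.71 and KLF2 at -0.50, and all 3 were called as before. KLF5 lay just under the fold-change threshold at 0.48, KLF10 was at 0.35, and KLF3 and KLF7 turned from just below 0 to 0.21 and 0.11. What set this library apart was not tested.

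**Figure D2:**
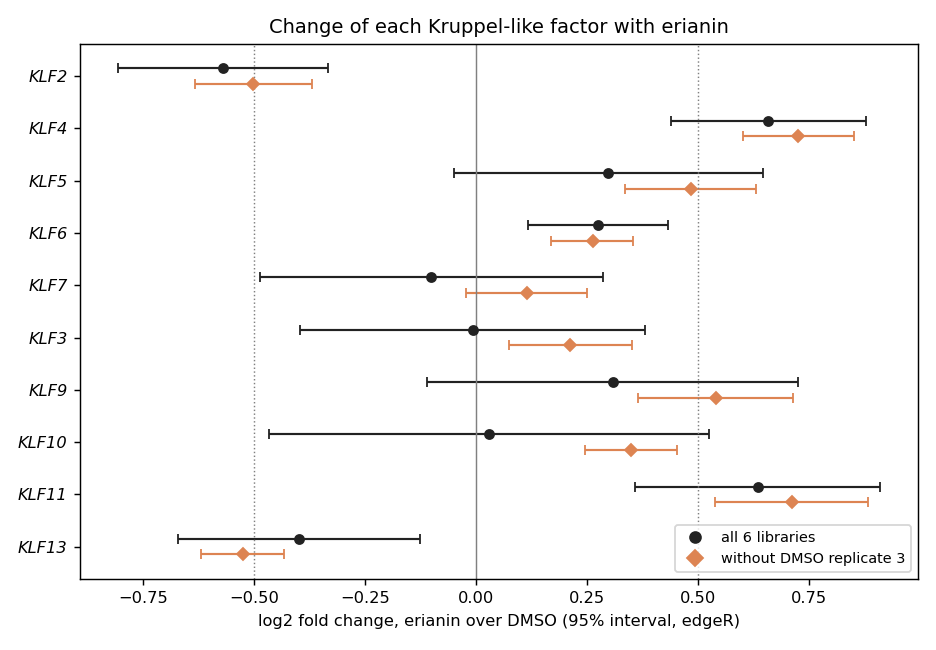
Log2 fold change of each member, erianin over DMSO (x axis), from edgeR with all 6 libraries (black circles) and without DMSO replicate 3 (orange diamonds), with 95% intervals. Dotted lines mark the thresholds of -0.5 and 0.5. KLF2, KLF4, KLF6, KLF11 and KLF13 have intervals that leave out 0 in both fits, and those of KLF3, KLF5, KLF9 and KLF10 leave out 0 only without DMSO replicate 3.

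The ratio of counts of a pair of genes within a library does not depend on how libraries are scaled. For pairs chosen after their values were seen, KLF4 over KLF2 was 0.684, 0.713 and 0.701 in the DMSO libraries and 1.73, 1.74 and 1.47 in the erianin libraries. KLF11 over KLF13 was 0.0948, 0.105 and 0.157 with DMSO and 0.23, 0.242 and 0.238 with erianin. Neither ratio overlapped between groups. This follows from the CPM values, in which the first gene of each pair was higher and the other lower, both without overlap. It is thus no separate evidence. For KLF4 over KLF2, DMSO replicate 3 lay between the other DMSO libraries. KLF9 over KLF13 was 0.0903, 0.0931 and 0.186 with DMSO and 0.189, 0.192 and 0.196 with erianin, so that DMSO replicate 3 came close to the erianin libraries.

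Levels were compared between members on the TPM scale, which divides counts by gene length, and several of the orders below hold only with the lengths that the authors used. KLF2 was first in all 6 libraries, with 131.6 ± 5.56 TPM in DMSO and 102 ± 9.14 TPM in erianin (mean ± SD, n = 3). In DMSO, KLF13 (80.5 ± 16.1 TPM), KLF10 (77.6 ± 22.5 TPM) and KLF6 (65.5 ± 3.95 TPM) followed, with overlapping values. A lower group held KLF3 (29.7 ± 5.73 TPM), KLF4 (20.7 ± 1.21 TPM), KLF9 (19.9 ± 4.21 TPM) and KLF5 (18.2 ± 2.90 TPM), of which KLF4, KLF9 and KLF5 overlapped. KLF7 (10.1 ± 1.96 TPM) and KLF11 (7.38 ± 0.702 TPM) were lowest.

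In erianin, KLF10 (91.9 ± 3.87 TPM) and KLF6 (90.7 ± 3.97 TPM) overlapped, KLF10 also overlapped with KLF2, and KLF13 came next at 69.5 ± 1.58 TPM. KLF4 rose above KLF3 in rank, with 37.5 ± 0.720 against 34.2 ± 1.25 TPM and no overlap between the libraries of the pair. KLF9 (28.5 ± 0.454 TPM) and KLF5 (25.8 ± 0.250 TPM) did not overlap either. KLF11, at 13.2 ± 0.483 TPM, exceeded KLF7, at 10.9 ± 0.542 TPM. KLF7 was above KLF11 in every DMSO library and below it in every erianin library.

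The deposited TPM columns reach 59.1% to 78.3% of their nominal total, lowest in DMSO replicate 3, so shares of the members' summed TPM were used to compare libraries. The 10 members summed to 440.6, 455.5 and 487.3 TPM with DMSO and to 492.1, 503.8 and 516.6 TPM with erianin. As a percent of the TPM of all named genes, these were 0.06, 0.0628 and 0.0825 with DMSO and 0.0638, 0.0671 and 0.066 with erianin. DMSO replicate 3 was thus the highest library, and the groups overlapped. The members' summed CPM overlapped as well, at 603.4 to 693.4 with DMSO and 645.1 to 675.7 with erianin. KLF2 made up 28.5 ± 0.547% of the members' summed TPM in DMSO and 20.2 ± 1.35% in erianin (SD, n = 3). KLF4 went from 4.49 ± 0.155% to 7.45 ± 0.235% and KLF11 from 1.6 ± 0.108% to 2.61 ± 0.113%. KLF6 had 14.3 ± 1.55% and 18 ± 0.65%, and KLF13 had 17.6 ± 4.19% and 13.8 ± 0.592%, the latter with DMSO replicate 3 at 12.8%, below all erianin libraries.

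The order of the members rests on the gene lengths that the authors used. For KLF2 the ratio of counts to TPM puts the length at 0.181 times that of KLF6. For a second length, CPM were scaled to the library total without TMM factors, so they serve to compare members within a group. Divided by the longest GENCODE transcript, a length chosen after the data were seen, these CPM put KLF6 first in both groups. KLF2 then ranked 2 in DMSO and 4 in erianin, and its share was 19% and 12.3%. The share of KLF2 was lower in erianin with either length. Per kilobase of that transcript, KLF4 was above KLF3 already in DMSO (14 against 7.28 CPM) as well as in erianin (23.5 against 7.67 CPM). KLF9 was the lowest member in both groups, at 3.32 and 4.36 CPM per kilobase, and thus below KLF5 in erianin (9.3 CPM per kilobase). KLF11 remained below KLF7 in DMSO (4.17 against 4.98) and above it in erianin (6.89 against 4.92 CPM per kilobase).

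**Figure D3:**
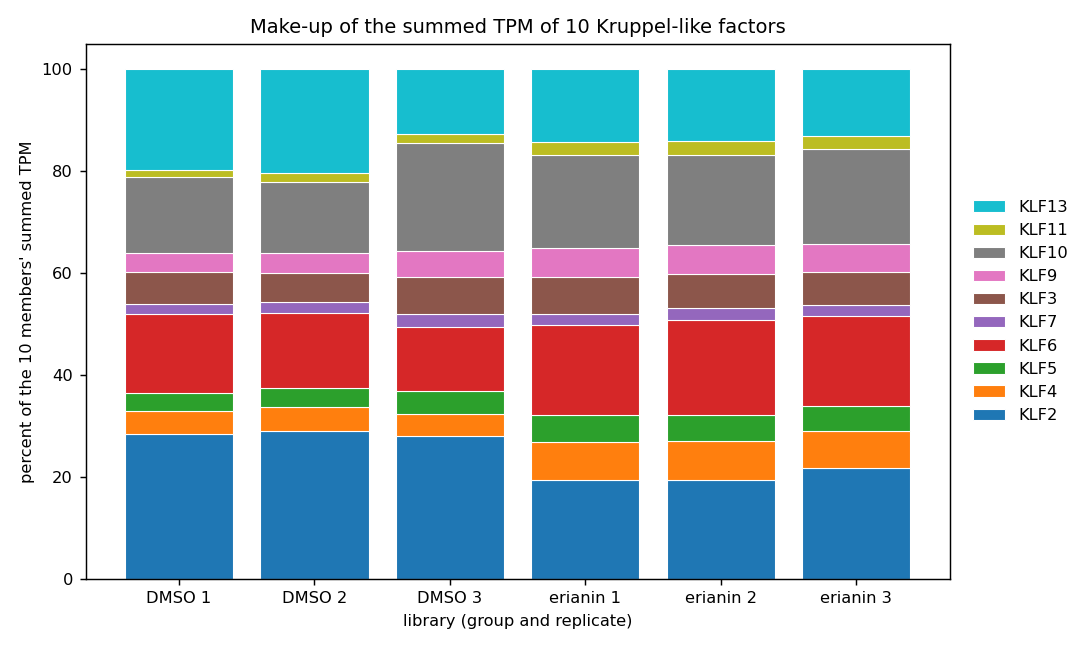
Percent of the 10 members' summed TPM (y axis) taken by each member in each library (x axis), stacked in the order of the legend. The lowest block, KLF2, is 28.0% to 29.1% in the DMSO libraries and 19.4% to 21.8% in the erianin libraries, and the KLF10 and KLF13 blocks of DMSO replicate 3 differ from those of the other DMSO libraries.

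Further genes were described from lists of the remaining family, cofactors, upstream inputs and known targets, which were drawn up with earlier results of these data known. Of the 17 other KLF and SP genes listed, 16 were found, all but KLF14, and 10 could be tested. None of the 10 was called by edgeR or by DESeq2, while edgeR called 5.37% of all tested genes higher and 3.36% lower. At an unadjusted p under 0.05 there was 1, KLF15, with 0.0821 to 0.257 CPM in DMSO and 0.343 to 0.571 CPM in erianin (log2 fold change 1.27 ± 0.457, SE, edgeR adjusted p = 0.105). Without DMSO replicate 3, KLF15 (log2 fold change 1.63, edgeR adjusted p = 0.0323) and SP4 (0.57, edgeR adjusted p = 0.00114) were called higher, against 11.4% of all genes in that fit. The most abundant were SP1 at 183.8 ± 33.2 and 153.9 ± 7.37 CPM, KLF16 at 52.4 ± 12.8 and 49.8 ± 1.41 CPM, SP3 at 44.1 ± 9.41 and 48.1 ± 1.47 CPM, and SP2 at 31.7 ± 8.36 and 26.8 ± 0.951 CPM in DMSO and erianin (mean ± SD, n = 3). SP1 and SP3 bind the same GC boxes as many KLFs.

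Of 14 cofactors, all tested, 1 was called higher and none lower, with a median log2 fold change of -0.028. Over all tested genes, 5.37% were called higher and 3.36% lower. The cofactor called was SAP30, a subunit of the Sin3A corepressor complex. SAP30 was at 14.7, 15.8 and 13.0 CPM with DMSO and at 19.3, 22.1 and 22.6 CPM with erianin, without overlap, a log2 fold change of 0.56 ± 0.118 (SE, edgeR adjusted p = 0.0216). Its call was lost without DMSO replicate 1 and without any erianin replicate, with edgeR adjusted p from 0.0665 to 0.113. Without DMSO replicate 3 it was lost by the fold-change threshold only (log2 fold change 0.48, edgeR adjusted p = 3.3e-05), and no cofactor was called.

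Of 17 upstream inputs, all tested, 1 was called lower and none higher, against 3.36% and 5.37% of all tested genes. The median log2 fold change of the inputs was 0.005. MAP2K5 encodes MEK5, the kinase that activates ERK5, which in turn acts on MEF2 factors at the KLF2 promoter in endothelium. MAP2K5 was at 36.8, 33.7 and 37.9 CPM with DMSO and at 21.3, 20.6 and 20.5 CPM with erianin. The groups were far apart beside their spread, with a log2 fold change of -0.795 ± 0.090 (SE, edgeR adjusted p = 0.00344), and the call was kept without any single library. Genes further along this route were not called with all 6 libraries. MAPK7, which encodes ERK5, differed by 0.052 ± 0.083, MEF2A by -0.22 ± 0.223, MEF2C by 0.36 ± 0.311 and MEF2D by 0.19 ± 0.070 on the log2 scale (SE). Without DMSO replicate 3, 4 inputs were called higher, MEF2C (log2 fold change 0.66, edgeR adjusted p = 0.0457), FBXW7 (0.54), NR3C1 (0.59) and FOXO1 (0.54), and MAP2K5 was still the 1 called lower. Over all genes in that fit, 11.4% were called higher and 6.11% lower. SMAD3, which carries TGF-beta signals, was lower at -0.33 ± 0.075 (SE, edgeR adjusted p = 0.0275), under the fold-change threshold.

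Of 23 listed targets, 22 were found, all but CCL5, and 20 were tested. Of these, 5 were called higher and none lower, against 5.37% and 3.36% of all tested genes. The median log2 fold change of the 20 was 0.18. TGFBR1 stood in this list and among the inputs. ATF3, a stress-induced transcription factor, was at 13.3, 12.3 and 9.12 CPM with DMSO and at 40.3, 42.5 and 39.1 CPM with erianin (log2 fold change 1.815 ± 0.147, SE, edgeR adjusted p = 0.00105). The other 4 were of low abundance. S1PR1, a sphingosine 1-phosphate receptor induced by KLF2 in T cells, was at 1.11, 0.924 and 1.41 CPM with DMSO and at 3.57, 2.98 and 3.37 CPM with erianin (log2 fold change 1.52 ± 0.210, SE, edgeR adjusted p = 0.00573). L1CAM, a neural adhesion molecule, rose from 1.89, 1.51 and 2.38 CPM to 4.98, 4.84 and 5.31 CPM (log2 fold change 1.39 ± 0.191, SE, edgeR adjusted p = 0.00567).

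EDN1, which encodes the vasoconstrictor endothelin-1 and is repressed by KLF2 in endothelium, was at 0.821, 0.770 and 0.963 CPM with DMSO and at 2.08, 2.46 and 1.68 CPM with erianin (log2 fold change 1.28 ± 0.233, SE, edgeR adjusted p = 0.0137). FGFBP1, a carrier of fibroblast growth factors, had 0, 6 and 2 counts with DMSO and 14, 22 and 37 counts with erianin (log2 fold change 2.905 ± 0.713, SE, edgeR adjusted p = 0.0342), so that its fold is imprecise. The calls of ATF3, S1PR1 and L1CAM were kept without any single library. That of EDN1 was lost without DMSO replicate 2, erianin replicate 1 or erianin replicate 2, and that of FGFBP1 without DMSO replicate 1 or any erianin replicate. KLF2 lowers EDN1 and raises S1PR1 in the cells where this is known, and here both were higher while KLF2 was lower. EDN1 and S1PR1 were both among the called targets. Of other listed targets of KLF2, THBD was lower, as given below. NOS3, of low abundance, was higher but not called (log2 fold change 0.47 ± 0.275, SE, edgeR adjusted p = 0.29). These are only part of the list, in which 11 tested targets were higher and 9 lower in all. Whether KLF2 acted on any of them here was not tested.

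Among the targets of high abundance, 3 were lower with an edgeR adjusted p under 0.05 and did not reach the fold-change threshold. Over all tested genes, 7.69% were lower at that adjusted p with no fold-change threshold. CCND1, which encodes cyclin D1, was at 327.1, 324.2 and 297.2 CPM with DMSO and at 224.4, 230.5 and 241.1 CPM with erianin, a log2 fold change of -0.45 ± 0.072 (SE, edgeR adjusted p = 0.00901). THBD, which encodes the anticoagulant thrombomodulin, differed by -0.47 ± 0.112 (SE, edgeR adjusted p = 0.0298) and was called lower without DMSO replicate 3, at -0.60. In that fit 7 targets were called higher, among them SMAD7 (0.51) and the 5 above, and 3 lower, with ENG (-0.59) and TAGLN (-0.58) beside THBD. Over all genes in that fit, 11.4% were called higher and 6.11% lower. PLAU, the urokinase gene, was at 1160 ± 113.1 CPM with DMSO and 882.9 ± 34.6 CPM with erianin (SD, n = 3), a log2 fold change of -0.39 ± 0.090 (SE, edgeR adjusted p = 0.0275). KLF15, SMAD3, CCND1, THBD, NOS3, PLAU, MAPK7, the MEF2 genes and the further genes called without DMSO replicate 3 were named after their values were seen.

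**Figure D4:**
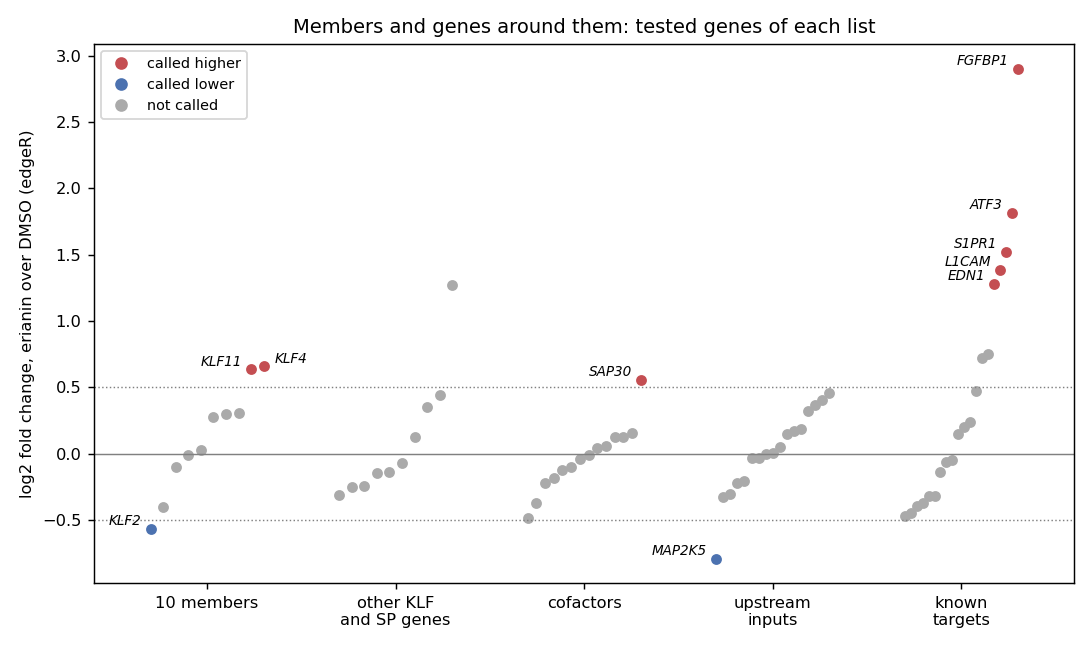
Log2 fold change, erianin over DMSO (y axis, edgeR, all 6 libraries), of every tested gene among the 10 members and in each list (x axis), ordered by value within a list. Red points were called higher and blue points lower, and dotted lines mark -0.5 and 0.5. The called genes are KLF4, KLF11 and KLF2 of the members, SAP30, MAP2K5 and 5 targets, and none of the other KLF and SP genes.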

How the data were processed

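RNA from 6 CAL62 libraries was extracted with TRIzol. The labels name Illumina library protocols and the paper a BGISEQ-500 sequencer. The authors deposited unnormalized read counts for each gene, and TPM values made from the same counts with 1 length per gene. The submitters' processing notes list fastp 0.23.2, STAR 2.7.10, featureCounts 2.0.1 and StringTie 2.2.1 and the builds GRCh38 and hg38, without roles; the strand setting is not given in the sources used here. Groups came from the sample titles. Rows without a gene identifier (26480 of 65807, 0.00385% to 0.00515% of counts) were left out. Where rows shared an identifier, the one with most counts carried the gene symbol, and the other rows stayed in the table that was filtered and fitted.

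Counts were fitted over all 12821 genes passing filterByExpr with edgeR 4.0.16 (TMM, glmQLFit, glmQLFTest) in R 4.3.3, after the steps were tested on simulated data. The simulated data held no library standing apart and had larger changes than the members, so they did not test calls such as those made here. Calls needed a Benjamini-Hochberg adjusted p under 0.05 over all tested genes and an absolute log2 fold change over 0.5. SEs came from the quasi-likelihood F. Members and lists were chosen with earlier results of these data known. Named genes were all members and the called genes of each list, or its 4 most abundant genes where none was called; exceptions are stated. Some listed genes are not reported here.

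Alternatives were DESeq2 1.42.0, RLE and upper-quartile factors, a minimum of 10 counts in each library or no such filter, limma 3.58.1 on log2(TPM + 1) for genes with mean TPM from 1 up, the same with a pseudocount of 0.1 or unfiltered, the replicate number as a block, removal of GC trends (loess, span 0.5), each library left out, and other fold-change thresholds. A transcript length alternative was added after seeing the data. Of 39168 identifiers, 38259 matched a symbol. Positions and transcript GC came from GENCODE release 29 (GRCh38), and promoters from RefSeq, where 8 of 10 members matched. Protein sequences were not used here. Intervals come from the fit to the spread between libraries. Deviations from the group mean were hardly correlated between libraries of the same replicate number (0.00183, 0.0313 and -0.0301). With 3 libraries per group and DMSO replicate 3 apart, this cannot decide whether the libraries were paired. Scripts used Python 3.11.15, pandas 2.3.3 and matplotlib 3.10.9.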

Additional observations from a re-analysis of the deposited data

How the results depend on the processing

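KLF4 and KLF11 kept their direction under all 18 alternative fits, as did KLF2, KLF5, KLF6, KLF9 and KLF13, with log2 fold changes from 0.59 to 0.86 for KLF4, 0.54 to 0.83 for KLF11 and -0.635 to -0.37 for KLF2. The number of members called higher (2) ranged from 0 to 3 with 1 library left out and was 0 at a threshold of 1. The number called lower (1) ranged from 0 to 2 with 1 library left out, and was 0 in the 3 TPM fits, at a threshold of 1, and with GC trends removed and DMSO replicate 3 left out. In that last fit KLF2, whose longest transcript is 65.2% G and C, was at -0.38 (edgeR adjusted p = 2.68e-06), under the fold-change threshold. KLF5 was called higher with log2(TPM + 0.1), at 0.515.

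The called genes of the other 4 lists together (6 higher, 1 lower) became 3 higher under the replicate block, 3 to 13 higher with 1 library left out (13 without DMSO replicate 3), and 1 to 4 lower with 1 library left out. They were 2 lower with GC trends removed, 4 lower with DMSO replicate 3 left out as well, 6 lower with no fold-change threshold and 0 lower at a threshold of 1. The length of the longest GENCODE transcript put the KLF2 share at 19% in DMSO and 12.3% in erianin. Under the replicate block KLF2 was at -0.57, KLF4 at 0.66 and KLF11 at 0.64, with edgeR adjusted p of 0.0346, 0.0333 and 0.0465, and SAP30, EDN1 and FGFBP1 were no longer called. Over all genes, the block called 384 higher and 281 lower, and leaving out an erianin replicate called 172 to 184 higher and 126 to 144 lower; the number of higher calls was 1098 on log2(TPM + 1), where 94 were lower.

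Genes with changes near 0 changed sign. KLF3 was at 0.043 with upper-quartile factors, 0.001 with at least 10 counts, 0.21, 0.22 and 0.21 on TPM, 0.019 under the replicate block, and from -0.13 to 0.21 with 1 library left out, positive without DMSO replicate 3 or erianin replicate 3. KLF7 was at 0.11, 0.12 and 0.11 on TPM and from -0.23 to 0.11 with 1 library left out, positive without DMSO replicate 3. KLF10 was at -0.039 with GC trends removed and from -0.12 to 0.35 with 1 library left out, negative without DMSO replicate 1 or 2. KLF16 was at 0.152, 0.155 and 0.152 on TPM and from -0.27 to 0.051 with 1 library left out, positive without DMSO replicate 1 or 2. SP2 was at 0.019 with GC trends removed and DMSO replicate 3 left out. SP3 was at -0.032 with GC trends removed and at -0.030 with the replicate block as well. MEF2A was at 0.025, 0.031 and 0.025 on TPM and from -0.38 to 0.11 with 1 library left out, positive without DMSO replicate 3. The causes were not tested.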
